A study of Mus musculus with 503 samples.

Results

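Pericytes that lack the tdTomato reporter were compared between crushed and uninjured mouse spinal cord, as 67 single cells labelled 3 days after spinal cord injury (SCI) and 61 single cells from uninjured cord, out of 503 labelled cells in the series. All cells are labelled female. The study's methods give females alone for crush lesions, while its reporting summary gives adult mice of both sexes for sequencing. All cells have the genotype GLAST-CreERT2;R26R-tdTomato;Pdgfrb-eGFP, so both groups carry all 3 transgenes. EGFP is driven by *Pdgfrb*, a PDGF receptor gene of mural cells (pericytes and the smooth muscle of vessels) and of perivascular fibroblasts. The tdTomato reporter is switched on by a tamoxifen-dependent Cre under the control of GLAST, the glutamate transporter gene *Slc1a3*, so a tdTomato- cell either did not use GLAST when tamoxifen was given or did not recombine. The injured cells came from the dissected segment of a complete crush of the thoracic cord, and the tdTomato-EGFP+ cells were sorted 1 per well and sequenced by Smart-seq3, which reads transcripts over their full length. The members were selected on measured values: a cell had to hold 20000 or more gene counts, and its CPM (counts scaled to a total of 1000000) had to be 100 or more for *Kcnj8*, under 200 for *Col1a1*, under 500 for *Myh11*, and lower for *Pecam1* than for *Pdgfrb*. *Kcnj8* encodes a subunit of the ATP-sensitive potassium channel of pericytes, *Col1a1* a fibroblast collagen, *Myh11* the myosin of smooth muscle and *Pecam1* an endothelial adhesion molecule.

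Pericytes lie within the basement membrane of capillaries, around the endothelium, and help to set capillary calibre, vessel stability and the blood-brain and blood-spinal cord barriers. After a lesion of the central nervous system, cells of the vessel wall can divide, leave it and lay down extracellular matrix, and tenascin-C, periostin and fibrillar collagens are familiar components of such scar matrix. Smooth muscle alpha-actin is used as a sign that a perivascular cell has taken up a contractile programme.

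Each deposited sample is 1 cell and the labels name no animal, so each group was treated as 1 sample and no test was made. A value of a group is the CPM of the counts summed over its gated cells, and a difference is on the log2(CPM + 1) scale, 3 d SCI minus uninjured, which understates the difference of genes with low values. Injured cells lie on plates 211 and 215 and uninjured cells on plates 209 and 213, so injury and plate cannot be told apart, and the differences between each injured plate and each uninjured plate, 4 in all, give a technical spread only. A gene is called higher or lower below where the sums differ 2-fold or more and all 4 pairs go the same way. Of 10998 genes at 10 CPM or more in either group, 10.3% were higher and 16.9% lower by this rule, and the median difference over all of them was -0.18 by CPM, -0.03 with TMM scaling and -0.02 with DESeq2 scaling. The gene lists below were chosen with earlier results of these data known, so the shares called within a list are a description. The gated injured cells held a median of 195665 gene counts (lowest 21327, highest 754554) and the uninjured cells 252987 (41435 to 801455). Mitochondrial genes took a median of 1.05% of counts after SCI and 0.995% in uninjured cord. Intervals in brackets are exact 95% intervals, Poisson for CPM and Clopper-Pearson for shares of cells, and they cover counting error only.

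Of the injured cells of sufficient depth the gate kept 67 and left out 37, a share of 64.4% (54.4 to 73.6), and of 100 uninjured cells it kept 61, 61% (50.7 to 70.6). By plate, it kept 42 of 58 cells on plate 211, 25 of 46 on plate 215, 25 of 43 on plate 209 and 36 of 57 on plate 213. Most injured cells outside the gate, 28, were low in *Kcnj8* and high in *Col1a1* at once, whereas in uninjured cord the most frequent reason, in 14 cells, was low *Kcnj8* with high *Myh11*. The limits fell in gaps for *Col1a1*, with 144.3 CPM the highest value inside and 486 the lowest outside in injured cells, and 32.1 against 748 in uninjured cells. Outside the gate *Kcnj8* reached 90.3 CPM after SCI and 11.9 in uninjured cord, and the lowest cell inside had 152.95 CPM after SCI and, just over the limit, 101.05 CPM in uninjured cord. *Myh11* reached 264 CPM inside and began at 505 outside after SCI, against 472 and 503 in uninjured cord, so this limit cut closest in the uninjured cells. The ratio of *Pecam1* to *Pdgfrb* reached 0.877 inside and began at 1.51 outside after SCI, against 0.929 and 1.02.

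The gated cells of both groups carried pericyte genes that the gate did not use. *Rgs5*, a regulator of G protein signalling that marks pericytes, had a count in every cell, with a median cell of 3850 CPM after SCI (lowest 32.4, highest 17595) and 4296 in uninjured cord (2253 to 8886). *Cspg4*, which encodes the proteoglycan NG2, summed to 741 CPM after SCI and 721 in uninjured cord. Not every pericyte gene held in this way. *Atp13a5*, another pericyte marker, had a median cell of 82.3 CPM after SCI and 1201 in uninjured cord. After thinning it was found in 40 of 67 injured and all 61 uninjured cells. *Foxf2* was also lower, and *Cd248* and *Mcam* were higher, as described below. The immune marker *Ptprc* was found in no cell of either group after each cell was thinned to 20000 counts, which allows up to 4.48% of 67 injured and 4.92% of 61 uninjured cells with a count at that depth; without thinning it had a count in 7.46% and 4.92% of cells. The uninjured cells also carried endothelial RNA: the summed level of 20 endothelial markers had a median cell of 25687 CPM (4175 to 42018), against 2886 (1185 to 43563) after SCI. The medians were 27155 and 23761 CPM on plates 209 and 213, and 2522 and 3524 on plates 211 and 215. *Pecam1* was under 50 CPM in 45 of the 67 injured cells and in only 5 of the 61 uninjured cells. The values were therefore also computed in cells under and at or above that level, and are given below for some lists and genes. A list or gene without such values below may also differ by this split.

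**Figure D1:**
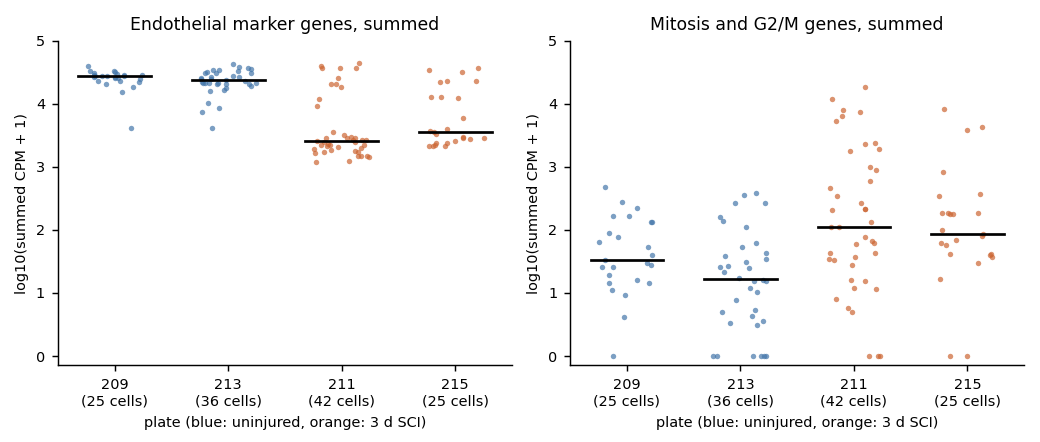
Each point is 1 gated cell, by plate, with the summed CPM of 20 endothelial markers (left) and of 20 mitosis and G2/M genes (right) as log10(summed CPM + 1), and the bar is the plate's median. The median endothelial sum is 25687 CPM in uninjured cells, and injured cells run from 1185 to 43563 CPM, while the highest mitotic sums, up to 18347 CPM, are in injured cells.

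The genes in the name given to these cells, *Tnc*, *Postn* and *Ednrb*, were chosen by this same contrast, so their values are a description. *Tnc* encodes tenascin-C, an anti-adhesive matrix glycoprotein of wounds and development. *Tnc* was at 0 in 56 of the 61 uninjured cells and reached 26.2 CPM, while in the injured cells it ran from 0 through a median of 28.5 to 4184 CPM. The sums were 0.437 CPM (0.189 to 0.861, from 8 counts) in uninjured cord and 679 CPM (667 to 692) after SCI. Both injured plates, 671 and 689 CPM, stood far above both uninjured plates, 1.05 and 0.159, and the 4 pairs differed by 8.36 to 9.22 around a difference of 8.89. Within the injured group *Tnc* was spread very unevenly, with 25 of 67 cells at 0 and 16 at 1000 CPM or more.

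*Postn* encodes periostin, a matricellular protein that binds integrins and collagen. *Postn* was at 0 in 52 uninjured cells, with a highest value of 223 CPM, and in injured cells ran from 0 through 169 to 4455 CPM. It summed to 12.6 CPM (11 to 14.3) in uninjured cord and 513 (502 to 524) after SCI, a difference of 5.24, with the pairs between 3.97 and 5.96. *Ednrb* encodes the endothelin B receptor, which in vessels is best known from endothelium. *Ednrb* reached 569 CPM in 1 uninjured cell and was at 0 in 52 others, and in injured cells ran from 0 through 93.5 to 6151 CPM. Its sums were 19.3 CPM (17.3 to 21.4) and 634 (622 to 647), a difference of 4.97 with pairs between 4.32 and 7.31. Groups overlapped for all 3 genes, since 25, 16 and 21 injured cells had no count of *Tnc*, *Postn* and *Ednrb*. *Kcnj8* itself, used by the gate, stood at 2288 CPM in uninjured and 2125 in injured cells.

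**Figure D2:**
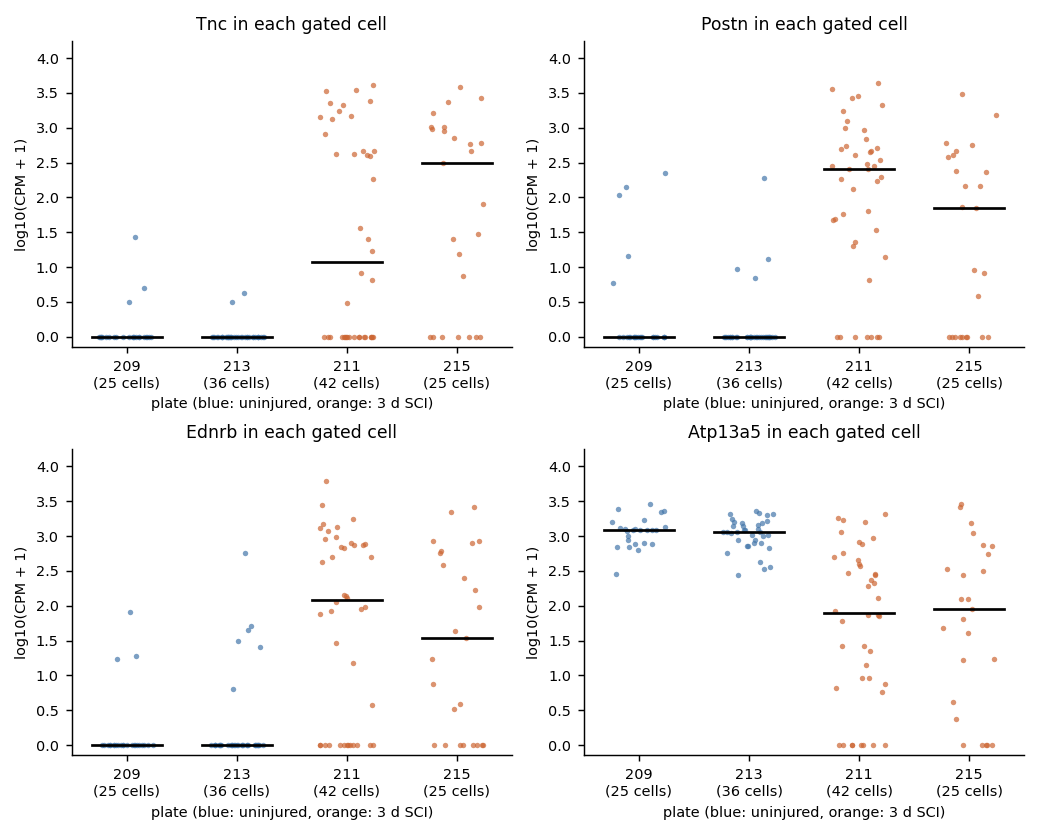
Each point is 1 gated cell, by plate, with its level as log10(CPM + 1), and the bar is the plate's median, for *Tnc*, *Postn*, *Ednrb* and *Atp13a5*. On plates 209 and 213 the median of *Tnc*, *Postn* and *Ednrb* is 0, and the injured cells of plates 211 and 215 spread from 0 to 4184, 4455 and 6151 CPM.

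The 3 genes were found together in only part of the injured cells. After thinning each cell to 20000 counts, *Tnc* was found in 31 of 67 injured cells, 46.3% (34 to 58.9), *Postn* in 45, 67.2%, and *Ednrb* in 38, 56.7%. In the uninjured cells the shares were 1.64%, 4.92% and 8.2% of 61. At least 1 of the 3 was present in 56 injured cells, 83.6% (72.5 to 91.5), and in 8 uninjured cells, 13.1%, while all 3 were present in 18 injured cells, 26.9%, and in 0 of 61 uninjured cells, which allows up to 4.92% at that depth. Without thinning, the injured shares were 62.7% for *Tnc*, 76.1% for *Postn* and 68.7% for *Ednrb*, and the uninjured shares 8.2%, 14.8% and 14.8%. At least 1 of the 3 then had a count in 91% of injured and 32.8% of uninjured cells, and all 3 in 43.3% of injured cells and again in 0 of 61 uninjured cells. Across injured cells the rank correlation of *Tnc* with *Postn* was 0.31 on plate 211 (42 cells) and 0.23 on plate 215 (25 cells), and that of *Tnc* with *Ednrb* 0.34 and 0.39. These correlations are within 1 plate each and are given as a description, since the cells of a plate share its library preparation and vary in depth.

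Within the injured cells *Tnc* ran against *Atp13a5*, which encodes a P5-type ATPase found mainly in pericytes of the central nervous system. *Atp13a5* was present in all 61 uninjured cells, from 273 through a median of 1201 to 2896 CPM, and in injured cells ran from 0 through 82.3 to 2923 CPM. It summed to 1302 CPM (1285 to 1318) in uninjured and 304 (296 to 313) in injured cells, a difference of -2.09 with pairs between -2.32 and -1.89. The rank correlation of *Tnc* with *Atp13a5* over injured cells was -0.81 on plate 211 and -0.86 on plate 215, and -0.73 and -0.77 after thinning to 20000 counts. In thinned cells, 23 of 67 injured cells had *Tnc* without *Atp13a5*, 32 had *Atp13a5* without *Tnc*, 8 had both and 4 had neither, while 60 of 61 uninjured cells had *Atp13a5* alone. These shares depend on depth: without thinning, 29 injured cells had a count of both, 13 of *Tnc* alone, 25 of *Atp13a5* alone and 0 of neither, and 56 uninjured cells had *Atp13a5* alone. The correlation of *Tnc* with the cell's total count was 0.35 and 0.00 on the same plates, and with its summed endothelial markers -0.21 and -0.48. *Postn*, in contrast, correlated with *Atp13a5* at -0.41 and -0.17.

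**Figure D3:**
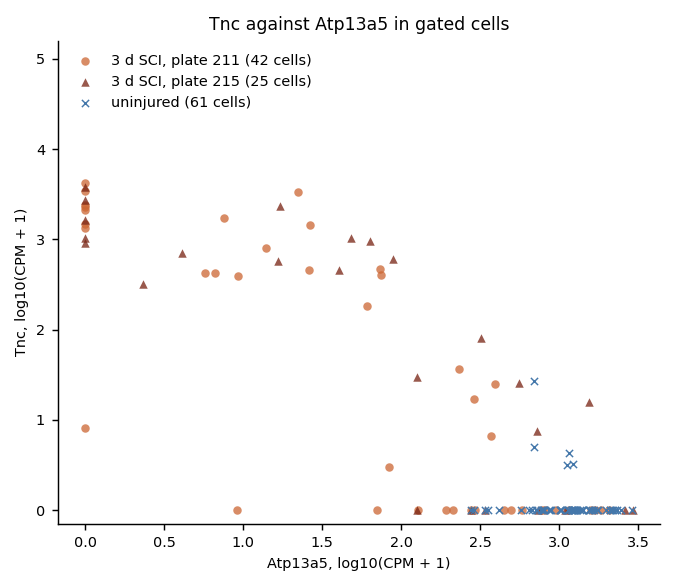
Each point is 1 gated cell, with *Atp13a5* on the horizontal and *Tnc* on the vertical axis, both as log10(CPM + 1), for injured cells by plate (circles 211, triangles 215) and uninjured cells (crosses). The 61 uninjured cells lie at the lower right, and the injured cells run from there to the upper left, with 25 of 67 at no *Tnc*.

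The promoters of 4 genes are shown because *Tnc* and *Ednrb* are in the name given to these cells, *Il6* carried a motif that recurred in its list, and *Atp13a5* ran against *Tnc*. Each is the RefSeq window on build GRCm38.p6 from 250 bases before to 50 after the annotated start, 5′ to 3′ on the gene's strand, with the first listed window used for a gene with several. Capitals mark the AP-1 letters TGANTCA or the TEAD letters GGAATG, searched on both strands. *Tnc* lies at chr4:64046966-64047265 on the minus strand, *Ednrb* at chr14:103843652-103843951 on the minus strand, *Il6* at chr5:30012864-30013163 on the plus strand and *Atp13a5* at chr16:29378683-29378982 on the minus strand.
Tnc: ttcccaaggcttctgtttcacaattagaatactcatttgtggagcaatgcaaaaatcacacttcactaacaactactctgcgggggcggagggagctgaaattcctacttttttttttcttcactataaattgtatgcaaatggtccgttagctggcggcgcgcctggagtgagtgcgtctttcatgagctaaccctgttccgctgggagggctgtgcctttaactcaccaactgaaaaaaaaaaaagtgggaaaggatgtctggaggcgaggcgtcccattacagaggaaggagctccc
Ednrb: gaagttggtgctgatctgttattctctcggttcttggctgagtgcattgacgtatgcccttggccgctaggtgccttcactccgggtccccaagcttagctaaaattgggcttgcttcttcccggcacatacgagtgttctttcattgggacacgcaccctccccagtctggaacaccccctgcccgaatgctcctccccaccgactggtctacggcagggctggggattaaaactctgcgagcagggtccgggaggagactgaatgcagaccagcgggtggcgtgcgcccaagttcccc
Il6: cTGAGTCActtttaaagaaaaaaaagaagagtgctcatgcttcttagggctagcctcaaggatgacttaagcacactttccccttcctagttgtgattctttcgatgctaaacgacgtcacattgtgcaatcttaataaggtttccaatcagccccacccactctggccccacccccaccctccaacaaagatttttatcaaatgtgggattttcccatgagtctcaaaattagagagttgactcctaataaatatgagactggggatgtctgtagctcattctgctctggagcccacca
Atp13a5: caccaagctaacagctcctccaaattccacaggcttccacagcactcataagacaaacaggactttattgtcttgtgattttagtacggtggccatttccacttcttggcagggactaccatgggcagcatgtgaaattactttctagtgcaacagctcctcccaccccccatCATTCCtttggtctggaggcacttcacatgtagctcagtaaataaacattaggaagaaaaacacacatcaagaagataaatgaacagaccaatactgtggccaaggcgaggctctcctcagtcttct
TGANTCA was present in 7.81% and GGAATG in 14.7% of 32851 windows. TGANTCA was found in 5 of 15 windows of the chemokine and cytokine list (those of *Cxcl10*, *Cxcl9*, *Il11*, *Il6* and *Lif*) and in 0 of 14 of the matricellular list. The 15 windows cover 13 of the 19 genes in the chemokine list. Of the genes with the letters, *Cxcl9* and *Lif* were under 10 CPM in both groups, and the higher genes *Ccl2*, *Ccl7*, *Ccl11* and *Cxcl1* were not among them. GGAATG was found in 6 of 16 windows of the pericyte identity list and 5 of 12 of the contractile list, on the reverse strand in *Atp13a5*. Neither set of letters was in the 6 windows of *Kcnj8*, *Tnc*, *Postn* and *Ednrb*. These are matches of letters, which no measurement here bears on directly.

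In the gated cells, genes that identify pericytes were called about as often as other genes. The gate required *Kcnj8*, itself a pericyte gene, and 33 injured and 24 uninjured cells of sufficient depth were under its limit. Cells low in *Kcnj8* could not enter, so the shares describe only cells selected for a pericyte gene. Of 18 in the pericyte identity list, 2 were higher (11.1%), 2 lower (11.1%) and 14 neither, beside 10.3% and 16.9% of all genes tested, and the list's median was -0.05 (pairs -0.35 to -0.03), turning to 0.11 with TMM or DESeq2 scaling. *Rgs5* summed to 4364 CPM in uninjured and 4302 in injured cells, *Abcc9*, the regulatory partner of *Kcnj8*, to 1197 and 918, and *Notch3*, a Notch receptor of mural cells, to 349 and 575. *Vtn*, which encodes vitronectin, stood at 4113 and 6754 CPM, but the pairs ran from -0.53 to 1.37, since plate 211 had 9756 and plate 215 had 3345. The higher genes were *Cd248* (endosialin), at 80.3 and 325 CPM, and *Mcam* (CD146), at 433 and 1387 CPM. Both were present in all 67 injured cells, from 11.5 through 295 to 1487 CPM for *Cd248*, against 0 through 22.7 to 418 in uninjured cells. The lower genes were *Atp13a5* and *Foxf2*, a transcription factor of brain pericytes, at 92.9 and 39.4 CPM. In cells with *Pecam1* under 50 CPM, 45 injured and 5 uninjured, the list's median was -0.84, and at 50 CPM or more, 22 and 56 cells, it was -0.18.

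Genes for transporters and channels of mural cells were lower after SCI. Of 14 measured at 10 CPM or more, 10 were lower and 0 higher, with a median of -1.33 (pairs -1.51 to -1.07), against a background of 16.9% lower. *Slc6a20a*, an imino acid transporter gene, ran from 28.1 through 693 to 1810 CPM in uninjured cells and from 0 through 18.5 to 1949 in injured cells, with sums of 689.9 and 180.1 CPM. *Slc19a1*, the reduced folate carrier gene, stood at 814 and 296 CPM. *Slc30a10* (a manganese exporter gene), *Slc38a11*, *Slc6a13*, *Abca9*, *Slc1a3* and *Atp13a5* were also lower, while *Abcc9*, *Kcne4*, *Slc6a12* and *Slc12a7* were neither. The summed level of the list had a median cell of 7637 CPM in uninjured (3786 to 14659) and 2881 in injured cells (598 to 18304). The median was -2.03 in cells with *Pecam1* under 50 CPM and -1.29 in those at 50 CPM or more, where the endothelial list differed by -5.08 and -0.43, and the part of endothelial RNA was not tested. Of these genes, *Slc6a20a* correlated with *Tnc* over injured cells at -0.68 on plate 211 and -0.79 on plate 215.

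**Figure D4:**
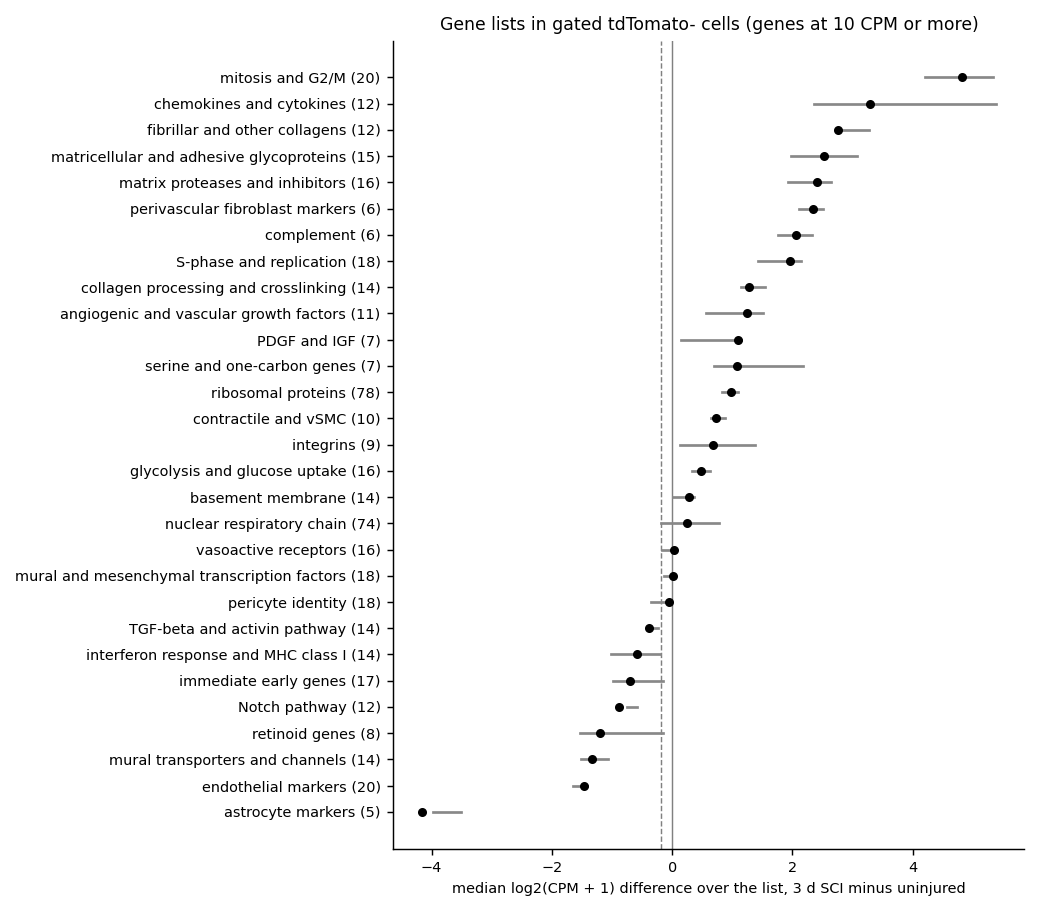
For each gene list with 5 or more genes at 10 CPM or more (number in brackets), the point is the median log2(CPM + 1) difference of the group sums, 3 d SCI minus uninjured, and the grey line spans the same median in the 4 plate pairs; the dashed line is the median of all genes, -0.18. The mitosis list stands highest at 4.82, matrix lists lie between 0.28 and 2.76, and mural transporters (-1.33), endothelial (-1.47) and astrocyte markers (-4.16) lie lowest.

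Matricellular and adhesive glycoproteins were higher after SCI in 12 of 15 measured genes, with 0 lower, beside a background of 10.3% higher. The 12 include *Tnc* and *Postn*, which were chosen by this same contrast, so the count is a description. The median was 2.52 (pairs 1.98 to 3.07), 3.18 in cells with *Pecam1* under 50 CPM and 1.48 in cells at 50 CPM or more. Beyond *Tnc* and *Postn*, *Spp1*, which encodes osteopontin, summed to 40.5 and 1939 CPM, but 1 cell of 104880 CPM gave 30% of its injured counts. Without that cell the difference was 5.06 in place of 5.55, and in cells with *Pecam1* at 50 CPM or more it was 1.48. *Spp1* had a count in 76.1% of injured and 78.7% of uninjured cells, or 55.2% and 41% after thinning. *Sparc*, a collagen-binding glycoprotein gene, ran from 1264 through 2352 to 3874 CPM in uninjured and from 2076 through 6864 to 21884 in injured cells, so the median injured cell lay above the highest uninjured cell. *Bgn* (biglycan) summed to 207 and 1192 CPM and *Mgp* (matrix Gla protein) to 438 and 1238. *Ccn2*, a connective tissue growth factor, stood at 105.5 and 584 CPM, though plate 211 had 982 and plate 215 had 131.3. *Fn1* (fibronectin), at 711 and 593 CPM, *Ccn1* and *Aspn* were neither. The list's summed level had a median cell of 4378 CPM (2424 to 7336) in uninjured and 13473 (5165 to 115051) in injured cells.

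In the list of fibrillar and other collagens, which leaves out the collagen IV chains, 10 of 12 genes were higher and 1 lower. Of all genes tested, 10.3% were higher and 16.9% lower. The median was 2.76, or 3.31 in cells with *Pecam1* under 50 CPM and 1.45 in those at 50 CPM or more. *Col18a1*, whose product carries endostatin, was present in 63 injured cells, from 0 through 487 to 3615 CPM, and summed to 19.1 CPM (17.1 to 21.2) in uninjured and 744 (731 to 757) in injured cells. *Col15a1* stood at 20.3 and 316 CPM, *Col8a1* at 42.9 and 260.1, and *Col3a1*, a fibrillar collagen gene of loose connective tissue, at 83.6 and 483. *Col6a3* summed to 0.546 CPM (10 counts) in uninjured and 142.9 CPM in injured cells, and *Col1a2* to 66.2 and 299 CPM. *Col1a1* was limited to under 200 CPM by the gate and gives no result. *Col14a1* was lower, at 11.4 and 1.62 CPM, and *Col6a2* was neither. In the cells outside the gate, *Col3a1* was far higher still, at 6933 CPM over the 37 other injured tdTomato-EGFP+ cells.

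The genes of the basement membrane list, which does not hold *Col18a1* or *Col15a1*, divided by chain. The collagen IV chains *Col4a1* and *Col4a2* and the laminin chain *Lamb1* were higher, *Col4a5* was lower, and the 10 other genes of 14 were neither. The shares were 21.4% higher and 7.14% lower, beside 10.3% and 16.9% of all genes tested. The median was 0.28 and turned to -0.05 in cells with *Pecam1* at 50 CPM or more. *Col4a1* ran from 77.3 through 569 to 1495 CPM in uninjured and from 541 through 2222 to 5532 in injured cells, and its pairs lay between 1.79 and 2.00. *Col4a2* summed to 177 and 571 CPM and *Lamb1* to 122.2 and 497. The other laminin chains stayed close, with *Lama4* at 265 and 367, *Lamc1* at 441 and 367 and *Lama2* at 289 and 261 CPM.

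Genes that fold, cut and crosslink collagen were higher in 9 of 14 (64.3%) and lower in 0, beside 10.3% and 16.9% of all genes tested. The median was 1.27 (pairs 1.14 to 1.55), or 1.52 and 0.92 with *Pecam1* under 50 CPM and at 50 CPM or more. *Loxl2*, a lysyl oxidase-like crosslinking enzyme gene, had a count in 64 injured and 12 uninjured cells and summed to 3.55 and 300.1 CPM. *Bmp1*, the procollagen C-proteinase gene, stood at 22.2 and 468 CPM, its enhancer *Pcolce* at 150.6 and 528, and *Serpinh1*, the collagen chaperone gene, at 975 and 2992. The prolyl hydroxylase subunit genes *P4ha1*, at 217 and 219 CPM, and *P4ha2* were neither. *Loxl2* followed *Tnc* over injured cells, with rank correlations of 0.63 and 0.73 on plates 211 and 215.

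Matrix proteases and their inhibitors were higher in 12 of 16 (75%) and lower in 1 (6.25%), beside 10.3% and 16.9% of all genes tested. The median was 2.41, or 2.75 and 1.27 with *Pecam1* under 50 CPM and at 50 CPM or more. *Adamts4*, which cuts aggrecan and other proteoglycans, was present in 65 injured and 20 uninjured cells, from 0 through 586 to 3707 CPM after SCI and up to 260.2 CPM in uninjured cord. Its sums were 16.5 CPM (14.7 to 18.5) and 807 (793 to 821), and the plates were close within each group, with 17.1 and 16.2 against 858 and 749. *Timp1*, a metalloproteinase inhibitor gene, was present in 60 injured and 3 uninjured cells and summed to 3.88 and 216 CPM. *Timp3*, another inhibitor of that family, was the lower gene, at 327 and 145.4 CPM. *Mmp11* summed to 78.6 and 786 CPM and *Mmp14*, a membrane-bound collagenase gene, to 19.7 and 138.9. *Serpine2* (protease nexin) stood at 243 and 1862 CPM, but 1 cell gave 56.6% of its injured counts, and without it the difference was 1.77 in place of 2.93. Among integrins, which bind such matrix, *Itga5* (24.1 and 336 CPM), *Itgb1* (298 and 712) and *Itgb3* (0.218 and 82.1, with 4 uninjured counts) were higher and 6 others of 9 neither. The share higher was 33.3%, beside 10.3% of all genes tested.

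Contractile genes moved unevenly. Of 10 measured, 4 were higher (40%) and 2 lower (20%), beside 10.3% and 16.9% of all genes tested. The median was 0.72, or 0.30 and 0.42 with *Pecam1* under 50 CPM and at 50 CPM or more, and -0.09 with no filter on low values. *Acta2*, the smooth muscle alpha-actin gene, had a median of 0 CPM in uninjured cells, with 1 cell at 3150, and ran from 0 through 517 to 9608 CPM in injured cells. It summed to 34.6 CPM (32 to 37.4) and 1614 (1595 to 1633), a difference of 5.50 with pairs from 4.23 to 8.52. The uninjured cell at 3150 CPM is the one with *Kcnj8* at 101.05 CPM, the other uninjured cells reached 253 CPM, and with *Kcnj8* at 200 CPM or more, which leaves 64 injured and 60 uninjured cells without that one, the difference of *Acta2* was 7.92. After thinning, *Acta2* was found in 50 of 67 injured cells, 74.6% (62.5 to 84.5), and in 7 of 61 uninjured cells, 11.5% (4.74 to 22.2). *Tagln*, an actin-binding protein gene, stood at 2.51 and 135.9 CPM, *Des* (desmin) at 96.5 and 479.8, and *Tpm2* (a tropomyosin) at 105.2 and 470.1. The myosin light chain genes *Myl9*, at 1388 and 1534 CPM, and *Mylk*, the kinase of those chains, at 521 and 818 CPM, were neither. *Casq2*, a calcium store protein gene, was lower at 875 and 332 CPM, and *Synpo2* at 23.1 and 9.13. *Myh11* was limited by the gate, at 74.6 and 39.3 CPM.

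Receptors for vasoactive substances did not move as a group, with a median of 0.03 that ran from -0.48 to 0.19 over the alternatives. Of 16, 4 were higher (25%) and 2 lower (12.5%), beside 10.3% and 16.9% of all genes tested. The 4 include *Ednrb*, which was chosen by this same contrast. Beside *Ednrb*, *Avpr1a*, the vasopressin V1a receptor gene, had 1 count in all uninjured cells together and a count in 41 of 67 injured cells, for sums of 0.0546 (0.00138 to 0.304) and 122.7 CPM (117.5 to 128.2). *Ptgir*, the prostacyclin receptor gene, summed to 2.62 and 70.4 CPM, with 70.1 and 70.8 on the injured plates. The endothelin A receptor gene *Ednra*, which mural cells normally use, was at 267 and 469.5 CPM and did not reach 2-fold. *S1pr3*, a sphingosine phosphate receptor gene, was close, at 866 and 819.9 CPM, as was *P2ry14* at 826 and 720.4. *S1pr1*, at 399 and 113.1 CPM, was lower, but it stood at 50.1 CPM in uninjured cells with *Pecam1* under 50 CPM and at 437 in those at 50 or more. The guanylate cyclase subunits that respond to nitric oxide, *Gucy1a1* and *Gucy1b1*, were neither.

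Growth factor genes differed by member. In the list of angiogenic and vascular growth factors 6 of 11 were higher (54.5%) and 2 lower (18.2%), beside 10.3% and 16.9% of all genes tested. The median was 1.25 and turned to -0.10 when only genes at 50 CPM or more were kept. *Pdgfa* summed to 24.8 CPM on both uninjured plates and to 138.5 and 264 on the injured plates, and was present in 91% of injured cells. *Vegfa* stood at 0.71 and 28.9 CPM, with a count in 23.9% of injured cells. *Pdgfb* and *Pdgfd*, at 108.7 and 30.6 CPM and at 139.7 and 21.3 CPM, were lower, and both were near 0 in injured cells with *Pecam1* under 50 CPM, at 0.958 and 0.383. *Igf1r*, the insulin-like growth factor receptor gene, was lower at 447 and 122.2 CPM in the sums and also in cells with *Pecam1* at 50 CPM or more, at 447 and 184. *Igfbp7*, an IGF-binding protein gene, was higher at 317 and 674 CPM.

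In the TGF-beta and activin list, 3 of 14 genes were higher and 4 lower, beside 10.3% higher and 16.9% lower of all genes tested. The median was -0.38, or -0.80 and -0.38 with *Pecam1* under 50 CPM and at 50 CPM or more. *Fstl1*, a secreted follistatin-like protein gene, was present in all 67 injured cells, from 204 through 1723 to 7170 CPM, against 0 through 188 to 1372 in uninjured cells. The ligand gene *Tgfb1* stood at 7.97 and 44.4 CPM and the type I receptor gene *Tgfbr1* at 32.4 and 83.3. The type II receptor *Tgfbr2* (189 and 84 CPM), the co-receptor *Tgfbr3* (108.2 and 35.4), the type I receptor *Acvrl1* (570.1 and 222) and the inhibitor *Smad7* (41.2 and 15.3) were lower. Among Notch genes, *Jag1* was higher and *Dll4*, *Hey1* and *Hey2* lower of 12 (8.33% and 25%, near the shares over all genes). The Notch median was -0.89, or -1.54 and -0.55 with *Pecam1* under 50 CPM and at 50 CPM or more. The Notch target *Heyl* was at 348 and 187 CPM and *Notch1* at 241 and 129.7, both short of 2-fold. *Dll4*, a Notch ligand gene, was at 188 and 20 CPM, and at 221 and 2.39 in cells with *Pecam1* under 50 CPM. Of 8 retinoid genes 4 were lower (50%) and 1 higher (12.5%), beside 16.9% and 10.3% of all genes tested. Among the lower was *Stra6*, the retinol uptake receptor gene. It was at 3.3 CPM in uninjured cells with *Pecam1* under 50 CPM against 69.3 in those at or above it.

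Genes for chemokines and cytokines were higher in 7 of 12 (58.3%) and lower in 1 (8.33%), beside 10.3% and 16.9% of all genes tested. The median was 3.29, with a wide range over the pairs, 2.36 to 5.38. *Ccl2*, a monocyte attractant gene, ran from 0 through 18.3 to 9681 CPM in injured cells and reached 54.3 CPM in uninjured cells, with sums of 3.44 CPM (2.64 to 4.4) and 597 (586 to 609). *Ccl7* stood at 0.437 and 205 CPM, *Ccl11* (eotaxin) at 23.1 and 490.2, and *Cxcl1*, a neutrophil attractant gene, at 48.6 and 232. *Il6* had 2 counts in 1 uninjured cell and had 1982 counts over injured cells, where 28 of 67 had a count and the highest held 961 CPM. *Cxcl10* rested largely on 1 cell, which gave 54.8% of its 1313 injured counts. *Cxcl12*, a chemokine gene of vessel walls, was the lower gene, from 11 through 753 to 3455 CPM in uninjured and 0 through 2.44 to 1649 in injured cells. *Cxcl12* was at 589 CPM in uninjured cells with *Pecam1* under 50 CPM and at 1003 in those at or above it, and at 17.2 and 423 CPM in the injured cells split the same way. The list's median was 4.33 in cells with *Pecam1* under 50 CPM and 1.29 at 50 CPM or more.

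Of the complement list, 4 of 6 genes were higher (66.7%) and 1, *Cd59a*, lower (16.7%), beside 10.3% and 16.9% of all genes tested. The median was 2.06, or 2.54 and 1.51 with *Pecam1* under 50 CPM and at 50 CPM or more. Among the higher genes was *Serping1*, the C1 inhibitor gene, at 52.2 and 368 CPM. Interferon response and MHC class I genes had a median of -0.59, with *Ifitm3* higher and *Rsad2* and *H2-K1* lower of 14, which is 7.14% and 14.3%, below the 10.3% and 16.9% over all genes, and the median turned to 0.16 with *Pecam1* under 50 CPM.

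Genes of the cell cycle were higher after SCI. In the mitosis and G2/M list 20 of 20 were higher, with a median of 4.82 (pairs 4.20 to 5.33). In the S-phase list 16 of 18 were higher, with a median of 1.96, beside 10.3% of all genes tested. The S-phase median was 3.69 and 2.25 with *Pecam1* under 50 CPM and at 50 CPM or more. *Mki67*, the proliferation antigen gene, had a count in 21 injured and 3 uninjured cells, and was at 0 in the remaining injured cells with a highest value of 1426 CPM. *Mki67* or *Top2a*, the topoisomerase gene of dividing cells, was found after thinning in 21 of 67 injured cells, 31.3% (20.6 to 43.8), and in 0 of 61 uninjured cells, which allows up to 4.92% at that depth. Without thinning, 37.3% of injured and 7 uninjured cells, 11.5% (4.74 to 22.2), had a count of either. When every cell with a count of either gene was left out, the mitosis median was 0.81 and the S-phase median 0.83. *Cdk1* (3.71 and 132.4 CPM), *Cdc20* (2.35 and 172) and *Ccna2* (11.2 and 97.2) followed the same pattern, and *Mcm3* and *Mcm5*, of the replicative helicase, stood at 24.3 and 159.2 and at 27.1 and 178 CPM. In the highest cell the mitosis list summed to 18347 CPM after SCI and 475 CPM in uninjured cord. The rank correlation of *Tnc* over injured cells was 0.15 and 0.10 with *Mki67* on plates 211 and 215, and 0.10 and 0.41 with the summed mitosis list.

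Genes of ribosomes were higher in 37 of 78 (47.4%) and lower in 0, beside 10.3% and 16.9% of all genes tested, with a median of 0.98 (pairs 0.83 to 1.09). The median of 74 symbols of nuclear respiratory chain genes was 0.24, with 2 higher (2.7%, below the 10.3% over all genes) and 0 lower. Gene symbols differ between plates, so these symbols, such as *Atp5f1* and *Atp5pb*, need not all be distinct genes. Among glycolytic genes, *Gapdh*, *Pgam1*, *Pgk1* (67.1 and 177 CPM) and *Pfkfb3* (8.68 and 22) were higher, *Aldoc* and *Slc2a1* lower, and 10 of 16 neither, including *Ldha* at 1150 and 1643 and *Aldoa* at 1034 and 1412. The shares were 25% higher and 12.5% lower, the latter below the share over all genes. *Gapdh*, at 259 and 738 CPM, has many near-identical pseudogenes that could share its counts. *Slc2a1*, the glucose transporter gene of barrier endothelium, was at 1687 and 728 CPM in the sums and at 332 and 279 in cells with *Pecam1* under 50 CPM. *Slc16a3*, a lactate exporter gene outside that list, was among the largest differences, at 2.51 and 184 CPM. Of 7 one-carbon and serine genes 4 were higher (57.1%) and 0 lower, beside 10.3% and 16.9% of all genes tested. They were led by *Mthfd2*, a mitochondrial folate enzyme gene, at 2.13 and 57.3 CPM.

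Transcription factor genes of mural and mesenchymal cells had a median of 0.01, between -0.85 and 0.15 over the alternatives. Of 18, 4 were higher (22.2%) and 1 lower (5.56%), beside 10.3% and 16.9% of all genes tested. *Prrx1*, a mesenchymal homeobox gene, stood at 19.9 and 202 CPM and had a count in 34.4% of uninjured and 95.5% of injured cells. *Runx1* was at 11.7 and 64.2 CPM, *Snai1* at 31 and 80.6 and *Sox4* at 19.6 and 45.3. The mural factor genes *Ebf1* (548 and 431), *Nr2f2* (135.9 and 173) and *Foxs1* (221 and 193) were neither. Among immediate early genes *Myc* was higher, at 0.437 and 48.6 CPM, as was *Egr2*, while *Klf2*, *Klf4*, *Dusp1*, *Btg2* and *Atf3* were lower of 17. The shares were 11.8% higher, near that over all genes, and 29.4% lower. *Fos*, at 1729 and 1564 CPM, and *Egr1*, at 516 and 406, were neither. The median of the immediate early list was -0.71, or -1.54 and -0.51 with *Pecam1* under 50 CPM and at 50 CPM or more. Tissue dissociation is known to induce genes of this list, and its part in these values was not tested.

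The 20 largest differences in each direction, among genes at 50 CPM or more in the higher group and present in 50% or more of its cells, were taken from 247 higher and 456 lower genes. Upward they began with *Tnc* and *Ccl2*, followed by *Sdc1* (syndecan, a matrix receptor), *Avpr1a*, *Dcn* (decorin), *Thy1* (a surface glycoprotein), *Col6a3*, *Oacyl*, *Itgb3* and *Loxl2*. *Sdc1* had 6 counts in uninjured cells, 0.328 CPM, and 158.9 CPM after SCI, with 152.5 and 166 on the plates. *Stc1* (stanniocalcin) was present in 54 injured and 8 uninjured cells, at 1.97 and 175 CPM, and *Ptprn* in 49 and 5, at 4.26 and 324. *Tubb3*, a tubulin gene best known from neurons, was at 13.3 and 608 CPM, with a count in 49 injured cells, whereas *Stmn2*, another neuronal gene, was lower at 43.8 and 11.1. *Dcn*, a fibroblast matrix gene, was present in 62 injured and 21 uninjured cells, at 14.9 and 1570 CPM, and 1 cell of 26121 CPM gave 25.9% of the injured counts. *Cd44*, the hyaluronan receptor gene, was at 1.8 and 112.3 CPM.

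Downward the largest differences were those of *Akr1c14*, *Asb4*, *Gbp2b*, *Pik3r6*, *Slc1a1*, *Xdh*, *Ddc*, *Ivns1abp*, *Stra6* and *Arl4d*. Several of these stood with the endothelial genes in uninjured cells: *Slc1a1* was at 8.26 CPM in uninjured cells with *Pecam1* under 50 CPM and at 693 in those at or above it, *Xdh* at 0.551 and 252, and *Pik3r6* at 0.551 and 108.8. The part of endothelial RNA in their difference was not tested. Others were present in both kinds of uninjured cell, with *Slc22a8*, an organic anion transporter gene, at 637 and 799.8 CPM, *Tdrp* at 336 and 384, *Asb4* at 69.9 and 61.4 and *Gbp2b*, a guanylate-binding protein gene, at 56.2 and 57.6. *Slc22a8* ran from 3.95 through 733 to 1542 CPM in the 61 uninjured cells and had a count in 30 of 67 injured cells, with sums of 784 and 74.2 CPM. *Ivns1abp*, at 131.6 and 659 CPM in the 2 kinds of uninjured cell, stood at 607 and 46.7 CPM in the sums, with 597 and 611 on the uninjured and 45.3 and 48.3 on the injured plates.

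**Figure D5:**
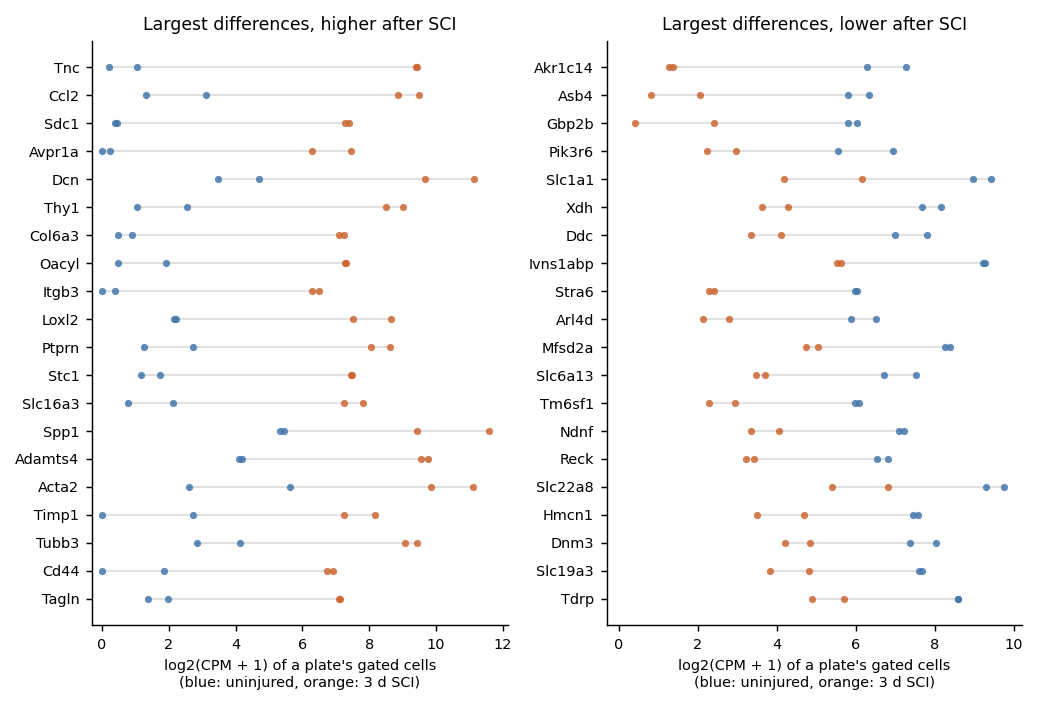
Shown are the 20 highest-ranked genes per direction, with the log2(CPM + 1) of the summed gated cells of each plate (blue, uninjured plates 209 and 213; orange, 3 d SCI plates 211 and 215). By the rule of choice no injured plate crosses an uninjured plate; *Spp1*, at 3045 and 682 CPM on the injured plates, is among the genes with the widest gap between plates of 1 group.

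Marker genes of other cell types were counted in the same cells. Of 20 endothelial markers 14 were lower and 0 higher, beside 16.9% lower and 10.3% higher of all genes tested. Of 5 astrocyte markers at 10 CPM or more 5 were lower, and of 4 immune markers 0 were called. The 5 include the connexin genes *Gja1* and *Gjb6*, which the study also detected in perivascular cells, so they do not mark astrocytes alone. Summed per cell, 10 astrocyte markers had a median of 68.6 CPM (0 to 4322) in uninjured and 6.41 (0 to 567) in injured cells, with *Gjb6* and *Aldh1l1* at 0 after SCI. The 13 immune markers had medians of 46 CPM (2.44 to 267) and 26.2 (0 to 771), and the 10 oligodendrocyte lineage markers 64.9 in both groups. The 9 neuron markers had medians of 8.73 CPM (0 to 519) and 208 (0 to 3612), with *Tubb3* at 608 of their 624 CPM in the injured sum. Of 6 perivascular fibroblast markers at 10 CPM or more 4 were higher (66.7%) and 1, *Cd34*, lower (16.7%), beside 10.3% and 16.9% of all genes tested. The 12 markers summed to a median cell of 1142 CPM (150.9 to 2452) in uninjured and 1786 (226 to 27251) in injured cells. *Lum* (lumican), one of them, had 0 counts in 61 uninjured cells, which allows up to 0.164 CPM in the sum, and 168 CPM after SCI from 24 of 67 cells. Their part in the matrix values above was not tested.

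The other injured cells, which failed the gate or were sorted as tdTomato+, differed from the members in pericyte genes to a degree that depended on the gene. Of the 100 injured tdTomato+ cells, 91 had *Kcnj8* under 100 CPM and 95 had *Col1a1* at 200 CPM or more. After thinning, *Rgs5* was found in 32.4% of the other tdTomato- cells and 5% of the tdTomato+ cells, against every gated injured cell. *Atp13a5* was found in 21.6% and 3% of the same cells, against 59.7% of the gated injured cells. *Vtn* was found in 56.8% and 65%, against 97%. *Ednrb* was higher in the gated injured cells, at 634 CPM against 18.9 CPM in the 37 other injured tdTomato-EGFP+ cells and 2.13 CPM in 100 injured tdTomato+EGFP+ cells. After thinning, *Ednrb* was found in 56.7% of the gated cells, 5.41% (0.661 to 18.2) of the others and 2% (0.243 to 7.04) of the tdTomato+ cells. *Tnc* did not separate them in this way, at 679, 368 and 992 CPM, and was found in 46.3%, 40.5% and 85% of cells. *Postn* stood at 513, 164 and 104.7 CPM, *Adamts4* at 807, 133.1 and 139.5, and *Avpr1a* at 122.7, 11.3 and 11.6. *Dcn* and *Spp1* were higher in the injured tdTomato+ cells, at 8391 and 23631 CPM. These cells were separated from the members by the gate's own genes and by the sort, each set is 1 sample, and the differences were not tested.

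The same gate passed 90 uninjured tdTomato+EGFP+ cells, 62.1% (53.6 to 70), but 4 of 100 after SCI, 4% (1.1 to 9.93), all on plate 211. The 90 gated uninjured tdTomato+ cells had *Tnc* at 1.25, *Ednrb* at 30.3, *Atp13a5* at 1174 and *Rgs5* at 4037 CPM, beside 0.437, 19.3, 1302 and 4364 in the uninjured members. After thinning, *Dcn* was found in 32.2% of them and in 11.5% of the uninjured members, and these differences were not tested. The 4 gated injured tdTomato+ cells had *Tnc* at 438 CPM, *Postn* at 494, *Acta2* at 2513 and *Atp13a5* at 92.6, but *Ednrb* at 30.3.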

How the data were processed

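Single EGFP+ cells of 2 sorted populations (tdTomato- and tdTomato+), from uninjured spinal cord and after a crush, were sequenced with Smart-seq3 in 4 groups. The labels give 3 days after injury, which is followed here, while the series text gives 5 days. The authors deposited tables of counts per gene and cell, not normalized, on build mm10 per the labels. The aligner and annotation are not given in the sources used here, nor is whether reads or unique molecules were counted. Of 1968 columns of cells, 503 matched a labelled cell and 1465 were not used. No cell columns were identical. Plates did not share all gene symbols: 14412 had counts on plate 211 alone or on the other plates alone, 454 of them among tested genes, and 9 repeated symbols were merged. The 92 ERCC spike-in rows were left out of library sizes and took 0.0984% of counts on plate 211 and 0 elsewhere. Wells received 1 sorted cell each, and doublets were not called.

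Counts were summed over gated cells per group and per plate and scaled to CPM, genes under 10 CPM in both groups were left out, and differences used a pseudocount of 1 CPM. No test was made, because the labels name no animal and each group was counted as 1 sample. Cells were thinned once to 20000 counts for shares of cells. Intervals are at the 95% level, and counting reads copied by PCR as independent makes them too narrow. The 32 gene lists and the members were chosen with earlier results of these data known. Named genes were the list members and the 20 largest differences per direction, of 2-fold or more in all 4 plate pairs, among genes with 50 CPM and a count in 50% of cells of the higher group. Mitochondrial, ribosomal, Gm-, Rik- and gate genes and symbols that differ between plates were left out of that ranking, and some list members are not reported here. Scaling alternatives used TMM (edgeR 4.0.16) and DESeq2 1.42.0 size factors in R 4.3.3. Other steps used Python 3.11.15, numpy 2.4.6, pandas 2.3.3, scipy 1.17.1 and matplotlib 3.10.9, and the calling of differences was tested on simulated data. Alternatives changed scaling, pseudocount, filters, plates, gate limits, depth and thinning.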

Additional observations from a re-analysis of the deposited data

Results flagged for a closer look

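ERCC spike-in RNAs, which no comparison above uses, were counted on plate 211 alone. They summed to 41040 counts there, in 51 of the 92 spike-in rows and 0.0984% of the counts of the plate's labelled cells, against 0 counts on plates 209, 213 and 215. The 42 gated injured cells of plate 211 held 15673 of these counts. Plate 211 is 1 of the 2 plates of injured members, and plate 215, with 0 spike-in counts, gave *Tnc* at 689 CPM beside 671 on plate 211.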

How the results depend on the processing

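Of 1846 values recomputed for 93 results, 47 in 16 results had another sign than the reported difference or list median, 43 of them where that value was under 2-fold, such as *Rgs5* (-0.63 to 0.36), *Cspg4* (-0.27 to 0.26), *Vtn* (-0.30 without plate 211) and the pericyte identity, vasoactive and transcription factor lists. In all, 333 moved by more than the spread between plate pairs, the interval of a share or 1.5 times a count. With *Pecam1* under 50 CPM, which leaves 5 uninjured cells, *Tm6sf1* turned from -3.42 to 0.36, the PDGF and IGF list from 1.09 to -0.32 and the retinoid list from -1.20 to 0.40. With genes at 50 CPM or more, the angiogenic list turned from 1.25 to -0.10. Under the same *Pecam1* limit *Tnc* differed by 9.78, *Postn* by 9.59 and *Ednrb* by 8.65, and the lists by 3.18 (matricellular), 6.16 (mitosis), -2.03 (transporters) and -0.84 (pericyte identity). That limit gave 3184 genes higher and 930 lower, passed 43.3% of injured and 5% of uninjured cells, and left *Tnc* in 60% of injured cells after thinning. With *Pecam1* at 50 CPM or more in both groups, an alternative chosen after seeing the data, *Tnc* differed by 7.85, *Postn* by 2.46 and the matricellular list by 1.48, 21.2% of injured cells passed and 18.2% of them had *Tnc*. A pseudocount of 10 CPM gave 6.05 for *Tnc*, 2.72 for the mitosis list and 1177 genes lower. *Col1a1* under 50 CPM gave 8.40 for *Tnc*. Keeping genes at 50 CPM or more gave 574 higher and 926 lower, and no filter 2922 lower. The mean of each cell's CPM gave -1.03 for transporters, and TMM and DESeq2 scaling 0.11 and 0.11 for pericyte identity. Leaving out cells with *Mki67* or *Top2a* gave 0.81 for the mitosis list and passed 40.4% of injured cells. Without thinning, *Tnc* had a count in 62.7% of injured cells.

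Leaving out 1 plate at a time, the difference was 8.38 to 9.20 for *Tnc*, 4.40 to 5.71 for *Postn* and 4.53 to 7.14 for *Ednrb*, the last highest without plate 213. The list medians were 1.93 to 2.60 (matricellular), 4.36 to 5.19 (mitosis), -1.48 to -1.06 (transporters) and -0.37 to -0.03 (pericyte identity). Gated shares were 54.3% to 72.4% of injured and 58.1% to 63.2% of uninjured cells, and *Tnc* was found after thinning in 42.9% to 52% of injured cells. Counts of genes were 1374 to 1688 higher and 1968 to 2553 lower, since fewer plate pairs then have to go the same way. No paired analysis was possible because the result comes from no test and each group is 1 sample. Plate and injury cannot be told apart, cells of low depth miss genes of low level, and no value carries a spread between animals.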

Other observations

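The genes whose level over injured members ran most closely with or against *Tnc*, by the smaller of the rank correlations on plates 211 and 215 among 6700 genes ranked, were named after their values were seen. With *Tnc* ran *Hspd1*, a mitochondrial chaperone gene, at 0.64 and 0.77, and *Eif4a1*, a translation initiation helicase gene, at 0.58 and 0.79. *Rrp9* (0.60 and 0.76), *Nop16* (0.59 and 0.73) and *Gnl3* (0.55 and 0.64) were also among the 15 closest. *Aebp1*, a matrix-binding protein gene, summed to 4.2 CPM in uninjured and 201 in injured cells. Against *Tnc*, after *Atp13a5*, ran *Sparcl1* at -0.75 and -0.69, *Plxdc1* at -0.62 and -0.82 and *Pltp*, a phospholipid transfer protein gene, at -0.58 and -0.77. *Sparcl1* differed little between the groups in its sums, at 3239 and 2662 CPM, whereas *Selenop*, a selenium carrier gene, at 1979 and 597 CPM, and *Ccdc141*, at 675 and 125.5, were lower after SCI. The cells of a plate share a library preparation and vary in depth, so these values describe the cells measured.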
